A study of Gallus gallus with 28 samples.

Results

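Plasma proteins made by the liver were followed in chickens (Gallus gallus) of a fat and a lean line through 5 genes: AHSG, GC, CFI, ITIH3 and ORM1. They were chosen by gene symbol in the array's annotation, and every position printed for them was kept. They stood at 7 of 576 printed positions, 21 of 1728 spots, on an array with 142 named genes. AHSG, CFI and ITIH3 had 1 position each. GC and ORM1 had 2 each, carrying different cDNA clones, called here by the printing block (GC in blocks 11 and 15, ORM1 in blocks 10 and 14). Their Entrez gene IDs are 424956 for AHSG, 395696 for GC, 428773 for CFI, 415901 for ITIH3 and 395220 for ORM1. All 7 positions had enough values to be tested, among 297 that did.

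Poly(A)+ RNA of liver was compared between 5 pools of the fat line (pools 6 to 10) and 5 pools of the lean line (pools 1 to 5), each pool made from the total RNA of 4 birds. Every pool was labelled with Cy5 and hybridised to 2-colour cDNA arrays against 1 Cy3 reference mixed from all 10 pools, on 3 arrays a pool and on 2 for pools 3 and 8. The sources used here do not give the age, sex or feeding of the birds or how the lines were bred. Because arrays of a pool shared their RNA, each pool is 1 replicate and n counts pools.

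The liver releases most proteins of blood plasma. Some carry small molecules or minerals, some act in complement, and the acute phase proteins are made in larger or smaller amounts when the body meets infection or injury. AHSG (fetuin-A) binds calcium phosphate in serum, and GC carries vitamin D metabolites and scavenges actin. CFI is a protease that inactivates complement fragments. ITIH3 is a heavy chain of the inter-alpha-trypsin inhibitor family, which binds hyaluronan. ORM1, orosomucoid, is a lipocalin that binds drugs and lipids. In mammals ITIH3 and ORM1 are known to rise, and AHSG to fall, in the acute phase.

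All values are log2 ratios of a pool to the common reference, so they compare pools with one another and do not show how abundant an RNA was. The reference was mixed from all pools, yet AHSG averaged 0.18 in the fat line and 0.48 in the lean line. GC in block 11 averaged 0.71 and 0.22. Every pool was labelled with Cy5, so a dye effect at a position cannot be told apart from the level of the mixture. Signs against 0 are therefore descriptive. Sample over reference is the likely direction of the deposited ratio but is not stated. If it ran the other way, every sign and every higher or lower below would turn, while spreads and p-values would stay. In pooled liver RNA, fewer cells of a type and less RNA per cell cannot be told apart. Between 450 and 741 spots had a value on an array, and 36.7% of all table cells were filled against 74.0% for the 5 genes. Across positions, 2 arrays of the same pool correlated with a median r of 0.21. Of 7 hepatocyte markers listed 6 had named clones and 5 could be tested. The test between lines was passed by 0 of all 297 positions, or 0%, and by 0 of the 10 tested marker positions. These 10 include the AHSG position and both GC positions, and the difference was above 0 at 3 and below 0 at 7, with a median of -0.18 against 0.03 over all positions tested. FABP1 alone gave 5 of the 10 positions, all below 0 (from -0.46 to -0.03), so this median is not that of separate genes. The 3 above 0 were APOA1, APOB and GC in block 11. ALB, at 1 position, and 4 of the 9 APOA1 positions were never measured. Named clones of the red cell, leukocyte, stromal and fat cell markers listed numbered 0, so the part of other cells was not tested.

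**Figure D1:**
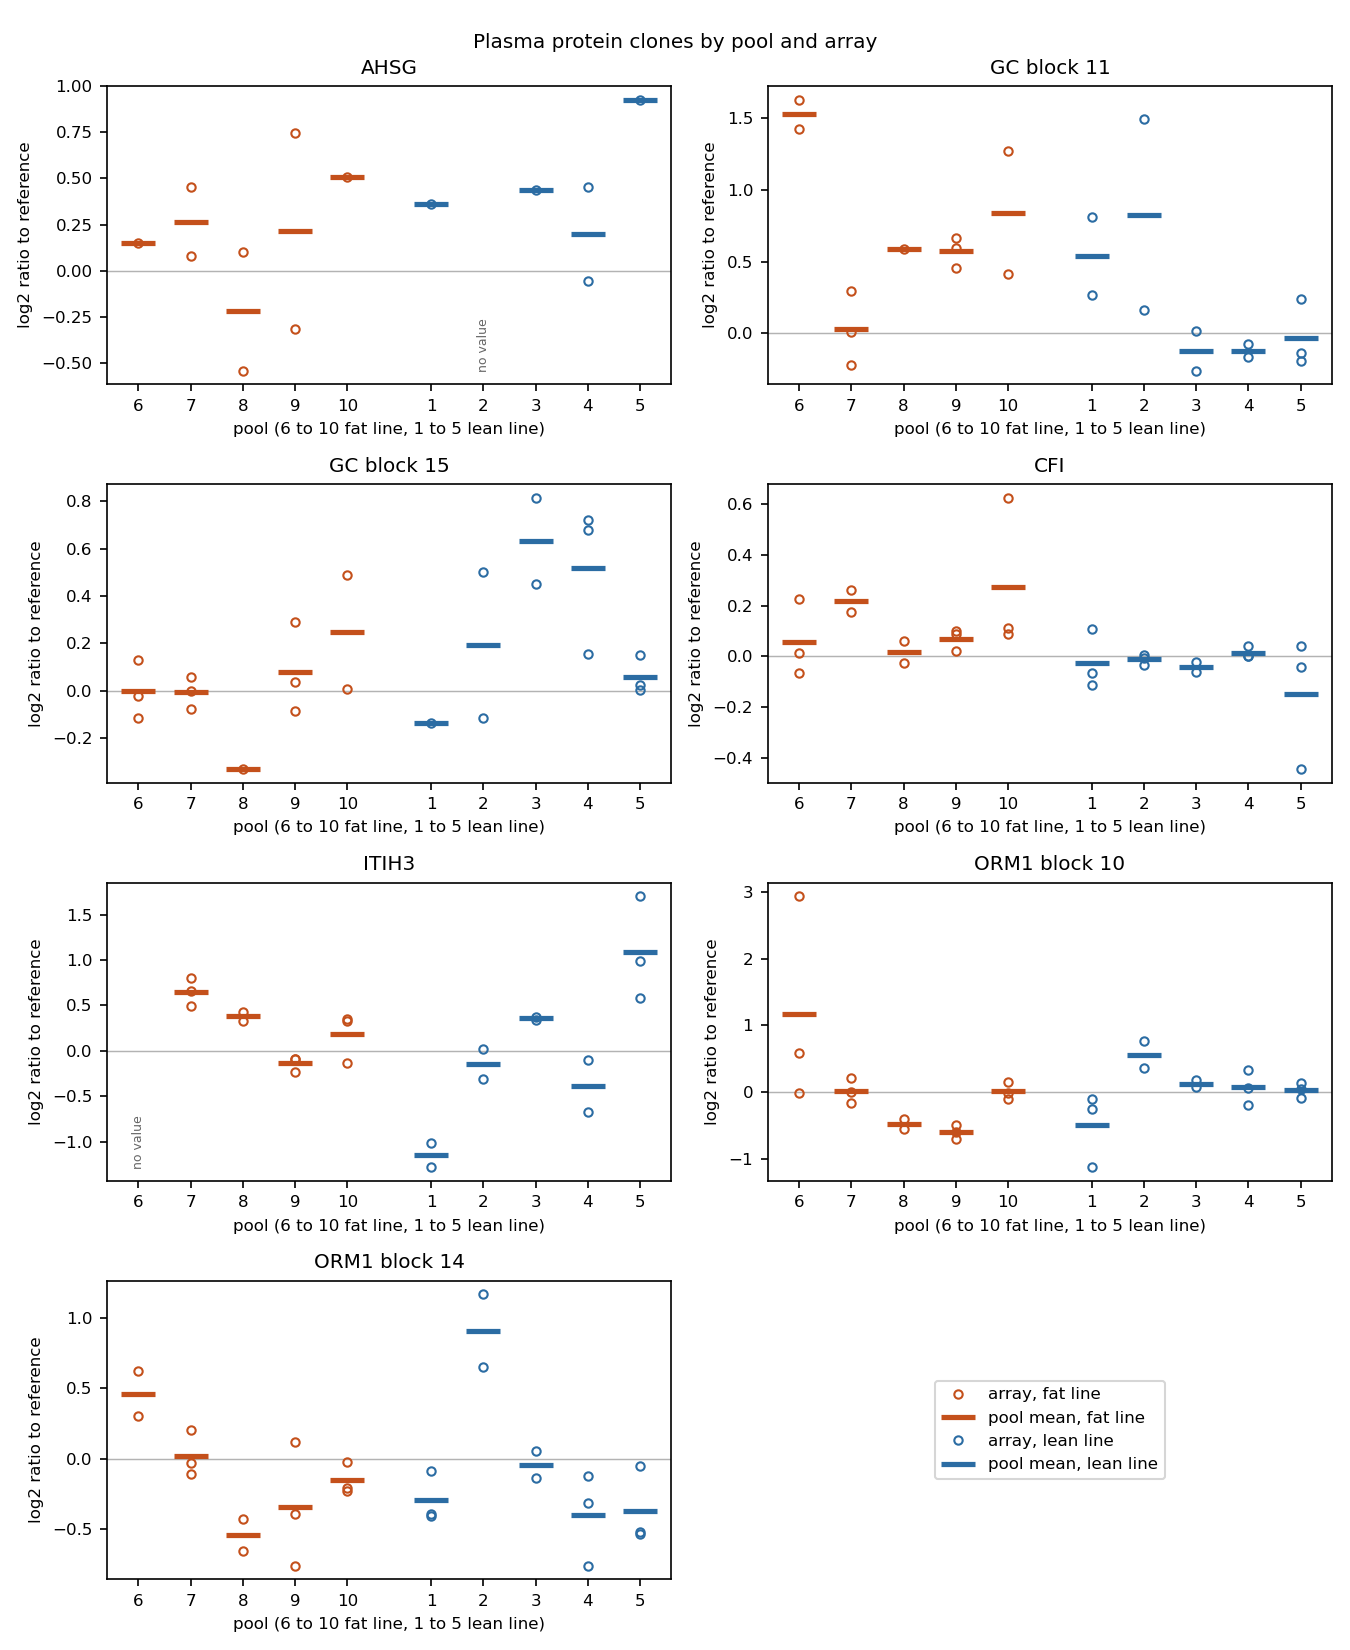
Log2 ratio to the common reference (vertical axis) in each pool (horizontal axis), 1 panel per printed position, with fat pools 6 to 10 on the left and lean pools 1 to 5 on the right. Open circles are arrays and bars are pool means. Pool means of ITIH3 spanned -1.15 to 1.09 in the lean line, and those of CFI lay between -0.15 and 0.28 in both lines. Single arrays ran wider for both genes. AHSG had no value in pool 2 and ITIH3 none in pool 6.

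AHSG was the gene measured least often. Of its 84 table cells 30 were filled, and 13 of 28 arrays gave a value, 8 of them in the fat line and 5 in the lean line. It stood at 0.15, 0.27, -0.22, 0.21 and 0.51 in fat pools 6 to 10, and at 0.36, 0.44, 0.20 and 0.93 in lean pools 1, 3, 4 and 5. The lines overlapped, and no fat pool exceeded the highest lean pool. The means were 0.18 ± 0.26 in the fat line (SD, n = 5) and 0.48 ± 0.31 in the lean line (SD, n = 4). They differed by -0.30 (standard error 0.19, 95% interval -0.73 to 0.14), which did not pass the limma test across all positions (adjusted p = 0.656). Fat pools 6 and 10 and lean pools 1, 3 and 5 rested on 1 array each. Where 2 arrays gave a value they disagreed: 0.08 and 0.45 in pool 7, -0.54 and 0.105 in pool 8, -0.315 and 0.74 in pool 9, 0.45 and -0.055 in pool 4. The SD between arrays of a pool was 0.49, larger than the difference between the lines. The lean values came from arrays 1 and 2 only, the fat values mostly from arrays 2 and 3. The difference was -0.15 without pool 5 and -0.20 without pool 8.

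GC was measured by 2 clones whose differences between the lines had opposite signs, neither past the test. The clone in block 11 stood at 1.53, 0.03, 0.59, 0.57 and 0.84 in fat pools 6 to 10, and at 0.54, 0.83, -0.12, -0.12 and -0.03 in lean pools 1 to 5. Fat pools 6 and 10 lay above every lean pool, pool 10 by little (0.84 against 0.83 in pool 2), and the other fat pools lay within the lean range. The means were 0.71 ± 0.54 in the fat line and 0.22 ± 0.44 in the lean line (SD, n = 5 each), differing by 0.49 (standard error 0.29, 95% interval -0.14 to 1.13, limma adjusted p = 0.631). The difference was 0.29 without pool 6 and 0.66 without pool 7. The 16 other tested clones of block 11 had medians between -0.11 and 0.41 in the fat pools, with 0.03 in pool 6.

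In block 15 the GC clone stood at -0.0022, -0.0056, -0.33, 0.08 and 0.25 in fat pools 6 to 10, and at -0.14, 0.19, 0.63, 0.52 and 0.06 in lean pools 1 to 5. The lines overlapped, and no fat pool reached the lean mean. The fat line averaged -0.0017 ± 0.21 and the lean line 0.25 ± 0.32 (SD, n = 5 each), and they differed by -0.26 (standard error 0.17, 95% interval -0.64 to 0.13, limma adjusted p = 0.656). The difference was -0.16 without pool 3, -0.35 without pool 1, and 0.017 with array 1 of each pool only.

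Across the 10 pools the Pearson correlation of the 2 GC clones was -0.42 (permutation p = 0.224, adjusted p = 0.298 over 4 correlations) and Spearman's rho was -0.32 (permutation p = 0.368, adjusted p = 0.368). Without pools 6 and 3, the 2 farthest from the median in block 11, Pearson's r was -0.25. Both clones had the same sign in 3 of 10 pools. This count is a description only, since signs depend on where 0 lies and the block 15 clone was near 0 in pools 6 and 7 (-0.0022 and -0.0056). In pool 6 they lay 1.53 apart, with the block 11 clone high on both arrays that measured it (1.63 and 1.42) and the block 15 clone between -0.12 and 0.13 on all 3. The gap between the clones, block 11 minus block 15, averaged 0.71 ± 0.55 in the fat line and -0.03 ± 0.68 in the lean line (SD, n = 5 each). That difference of 0.75 did not pass an exact permutation test (two-sided p = 0.111, adjusted p = 0.222 over the 2 genes with 2 clones). The direction of GC between the lines was therefore not settled by these clones.

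CFI had the smallest spread between pools among the 5 genes and was the 1 position at which the lines did not overlap. It stood at 0.06, 0.22, 0.018, 0.07 and 0.28 in fat pools 6 to 10, and at -0.02, -0.01, -0.04, 0.013 and -0.15 in lean pools 1 to 5. All 5 fat pools lay above the highest lean pool, but by little: the lowest fat pool was at 0.018 (pool 8) and the highest lean pool at 0.013 (pool 4). No overlap of the lines was seen at 6 of the 232 positions measured in every pool, or 2.59%, and CFI was 1 of the 5 plasma protein positions in that set. The means were 0.13 ± 0.11 in the fat line and -0.04 ± 0.06 in the lean line (SD, n = 5 each), differing by 0.17 or 1.13-fold (standard error 0.10, 95% interval -0.05 to 0.39). The limma test across all positions did not pass (adjusted p = 0.631). An exact permutation of pools, unadjusted, gave the smallest p that 5 against 5 pools allow (two-sided p = 0.00794), which restates that the lines did not overlap. At the other 6 positions the exact p lay between 0.143 and 0.833.

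The CFI difference rested in part on single spots. In pool 10 the third array held spots of 0 and 1.25, and in pool 5 the first array held spots from -1.58 to 0.25. With the median of the spots in place of the mean, the difference was 0.11 and the lines overlapped. They also overlapped with array 1 of each pool only, after quantile normalization, with at least 2 spots required per array, and without any 1 of 5 single arrays (first of pool 1, first or second of pool 4, second of pool 6 or of pool 8). The sign held in all 48 alternatives, between 0.11 and 0.20.

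**Figure D2:**
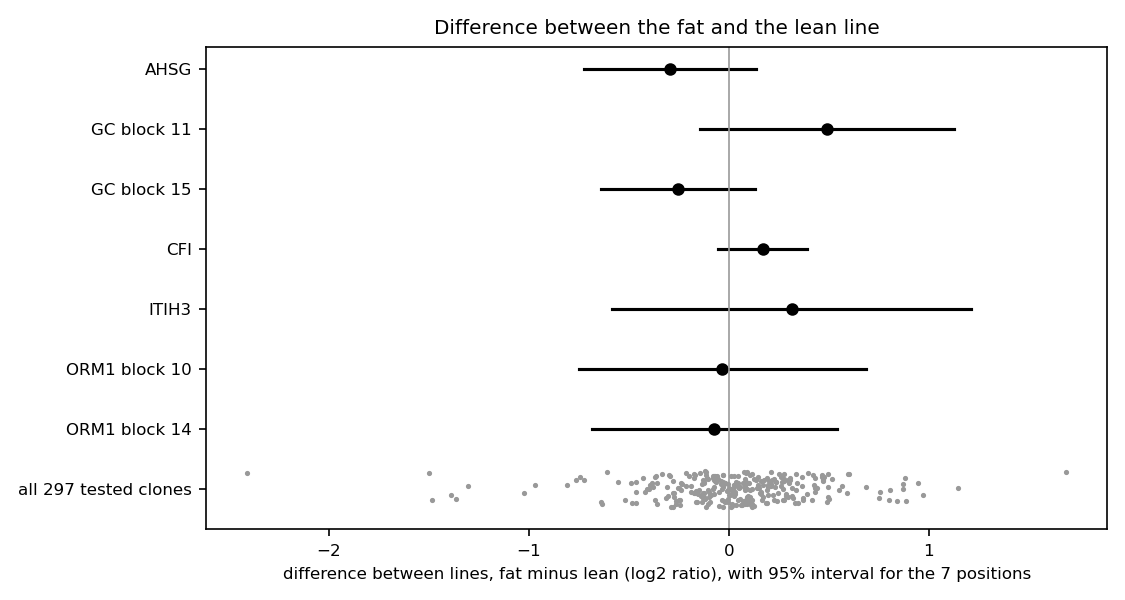
Difference between the lines, fat minus lean in log2 ratio (horizontal axis), at the 7 plasma protein positions (points, with 95% intervals from limma as bars) and at all 297 tested positions (grey points, spread vertically at random for visibility). Each of the 7 intervals crosses 0, and the CFI interval, -0.05 to 0.39, is the narrowest of them.

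ITIH3 had a wide range among lean pools, and its difference between the lines was imprecise. It stood at 0.65, 0.38, -0.14 and 0.18 in fat pools 7 to 10, with no value in pool 6, and at -1.15, -0.15, 0.36, -0.39 and 1.09 in lean pools 1 to 5. The fat pools all lay inside the lean range. The means were 0.27 ± 0.33 in the fat line (SD, n = 4) and -0.05 ± 0.84 in the lean line (SD, n = 5), a difference of 0.31 (standard error 0.40, 95% interval -0.58 to 1.21, limma adjusted p = 0.772). This value moved with single pools. Leaving out pool 1 gave 0.04, leaving out pool 5 gave 0.60 and leaving out pool 7 gave 0.19.

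Whether pools of a line differed beyond the error between their arrays was asked with a moderated F test. It sets the spread between pools against that between arrays of a pool. This test, like the genes, was chosen with earlier results of these data known. Among lean pools ITIH3 had the smallest p of the 189 positions tested (F = 19.0, limma adjusted p = 7.06e-04), where 9 positions passed, or 4.76%. Pool 5 stood 2.24 above pool 1, or 4.73-fold. The arrays kept this order: pool 1 gave -1.02 and -1.28 on its 2 measured arrays, and pool 5 gave 0.99, 1.70 and 0.58. Pool 3 gave 0.37 and 0.34, pool 2 gave -0.32 and 0.02, and pool 4 gave -0.10 and -0.67. Both arrays of pool 1 lay below every other lean array, and each array of pool 5 lay above every other lean array. Printing block 10, where ITIH3 was spotted, held 13 tested clones other than ITIH3 and ORM1. Their medians lay between -0.16 and 0.19 in the lean pools, with 0.02 in pool 1 and 0.08 in pool 5.

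The ITIH3 result held without any 1 lean pool, with limma adjusted p from 4.96e-04 to 0.0171 (without pool 1). It was lost when the lean line was fitted alone, without the array error of the fat line (limma adjusted p = 0.0526), where 1 of the 189 positions passed instead of 9. Single arrays of pools 1 to 4 could not be left out, since each of these pools had ITIH3 values on only 2 arrays.

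In the fat line ITIH3 could be tested only without pool 6, and there the 4 pools did not differ beyond the array error after adjustment (F = 3.60, limma adjusted p = 0.240), a test chosen after seeing the data. The spread between pools was 0.33 in the fat line and 0.84 in the lean line (SD, n = 4 and 5), 2.53 times wider in the lean line. A lean SD more than 2 times the fat SD occurred at 42 of 272 positions with at least 4 pools a line, or 15.4%. The difference in spread did not pass an exact permutation test (two-sided p = 0.286, adjusted p = 1 over these positions), also chosen after seeing the data. So few splits of 4 and 5 pools exist that no single position could pass this test after adjustment. The unadjusted p was not small either, and a wider spread of ITIH3 in the lean line was not shown.

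ORM1 had no settled direction between the lines at either position. The clone in block 10 stood at 1.17, 0.022, -0.48, -0.60 and 0.016 in fat pools 6 to 10, and at -0.49, 0.56, 0.13, 0.07 and 0.03 in lean pools 1 to 5. The fat line averaged 0.03 ± 0.70 and the lean line 0.06 ± 0.38 (SD, n = 5 each), so that they differed by -0.03 (standard error 0.32, 95% interval -0.75 to 0.68, limma adjusted p = 0.982). In block 14 the clone stood at 0.46, 0.02, -0.54, -0.34 and -0.15 in fat pools 6 to 10, and at -0.30, 0.91, -0.04, -0.40 and -0.37 in lean pools 1 to 5. Its means were -0.11 ± 0.38 in the fat line and -0.04 ± 0.55 in the lean line (SD, n = 5 each), so that they differed by -0.07 (standard error 0.28, 95% interval -0.68 to 0.54, limma adjusted p = 0.946). The lines overlapped at both positions. Each difference changed sign without pool 2 or pool 8, and that of block 10 also without pool 9.

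The 2 ORM1 clones shared their highest pools, and their lowest pools in part. Pools 6 and 2 were the 2 highest at both positions. The 3 lowest were pools 9, 1 and 8 in block 10 and pools 8, 4 and 5 in block 14. Pools 9 and 1 were also low in block 14 (-0.34 and -0.30), close to pools 4 and 5 (-0.40 and -0.37). Both clones had the same sign in 6 of 10 pools, a description only. Over the 10 pools Pearson's r was 0.77 (permutation p = 0.0120, adjusted p = 0.0480 over 4 correlations) and Spearman's rho, which did not pass, was 0.56 (permutation p = 0.0966, adjusted p = 0.193). Whether this correlation differed from that of the GC clones was not tested. Pearson's r was 0.79 without pools 6 and 9, the 2 farthest from the median in block 10, and 0.53 without pools 2 and 6, a choice made after seeing the data. Within a line there were 5 pools, too few for a correlation of its own. Over the 26 arrays with both clones r was 0.51, a description only, since arrays of a pool share their RNA and both clones share each array.

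**Figure D3:**
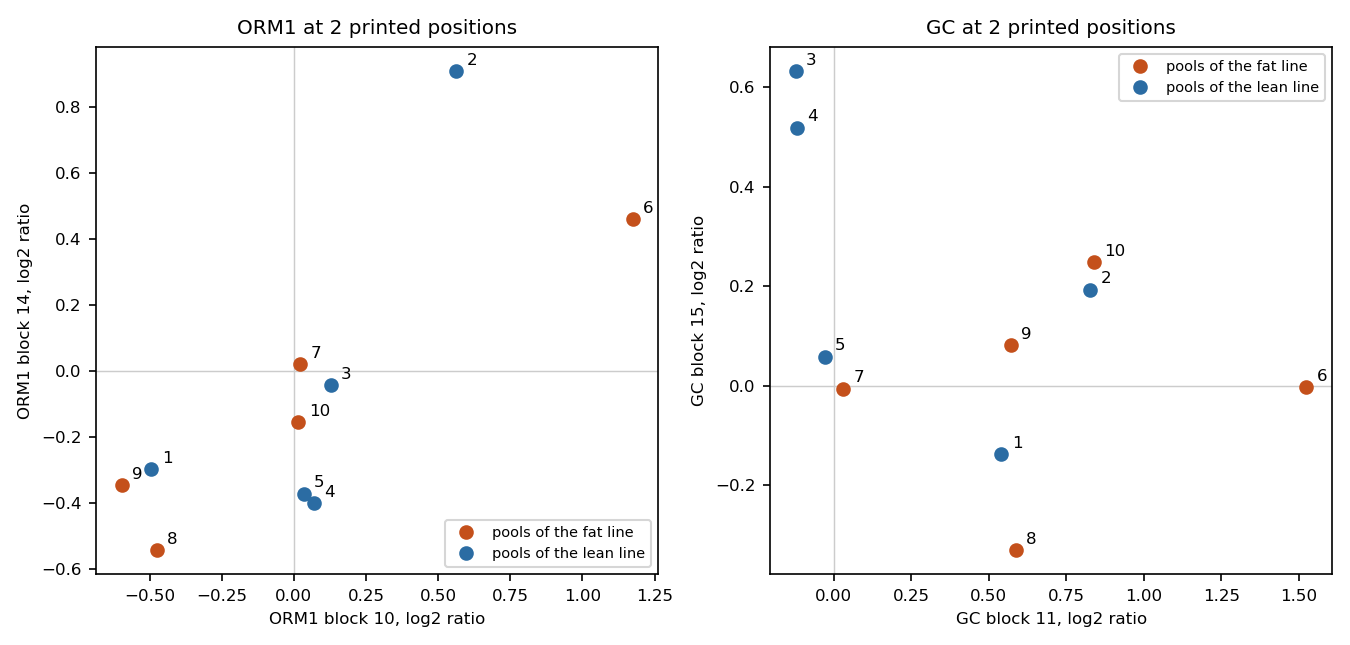
Log2 ratio of each pool at the 2 printed positions of ORM1 (left) and of GC (right), with fat pools and lean pools in different colours and pool numbers beside the points. For the ORM1 clones Pearson's r was 0.77 over 10 pools, and 0.53 without pools 2 and 6, which lie at the upper right. For the GC clones r was -0.42, with pool 6 at 1.53 in block 11 and near 0 in block 15.

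ORM1 in block 14 also differed among lean pools beyond the array error (F = 8.64, limma adjusted p = 0.0131), the fourth smallest p of 189. Pool 2 stood alone at 0.91, with 1.17 and 0.65 on its 2 measured arrays, and the other lean pools lay between -0.40 and -0.04. The result rested on that pool: without it the limma adjusted p was 0.734. It was also lost when the lean line was fitted alone (limma adjusted p = 0.0867). In block 10 pool 2 was again the highest lean pool (0.36 and 0.76 on its arrays), but the lean pools did not differ beyond the array error there (F = 1.20, limma adjusted p = 0.583). That error, shared by both lines, was larger in block 10 (array SD 0.59) than in block 14 (0.27). In block 10 it included fat pool 6, whose arrays stood at -0.01, 2.94 and 0.59. The array at 2.94 had no value in block 14. Without that array the F test of the lean pools in block 10 gave limma adjusted p = 0.129. With the lean line fitted alone, block 10 gave F = 3.35 (limma adjusted p = 0.291). The other 20 tested clones of block 14 had medians between -0.19 and 0.03 in the lean pools.

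Among fat pools 6 of 202 positions passed the F test, or 2.97%, and none of the 3 plasma protein positions tested was among them. ORM1 gave F = 4.77 in block 10 and F = 4.06 in block 14 (limma adjusted p = 0.133 and 0.175), and CFI gave F = 0.83 (limma adjusted p = 0.741). Pool 6 was the highest fat pool at both ORM1 positions, but its arrays disagreed in block 10. There the second array of pool 6 stood at 2.94, with all 3 spots between 2.87 and 3.05, against -0.01 and 0.59 on arrays 1 and 3. It was the highest value of the 275 positions measured on that array, whose median spot was at 0.005. The block 14 clone had no value on that array. The 13 tested clones of block 10 other than ORM1 and ITIH3 had a median of 0.02 in pool 6. Without that array the fat minus lean difference in block 10 was -0.21, and the F test gave limma adjusted p = 0.179 in the fat line and 0.129 in the lean line. Without the first array of pool 6 in its place, the fat pools passed (limma adjusted p = 0.0163).

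For GC and AHSG the pools could be compared only in part. In block 11 GC gave F = 3.00 among lean pools (limma adjusted p = 0.209), with pools 3 to 5 near 0. Pools 1 and 2 were high, but their arrays disagreed (0.81 and 0.27 in pool 1, 0.16 and 1.49 in pool 2). Among 4 fat pools without pool 8, which had 1 array, GC in block 11 gave F = 6.97 (limma adjusted p = 0.111), a test chosen after seeing the data. In block 15 it gave F = 0.49 without pool 8 in the fat line (limma adjusted p = 0.875) and F = 2.75 without pool 1 in the lean line (limma adjusted p = 0.278), likewise chosen after seeing the data. CFI gave F = 0.30 among lean pools (limma adjusted p = 0.922). AHSG had too few arrays per pool for the test.

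**Figure D4:**
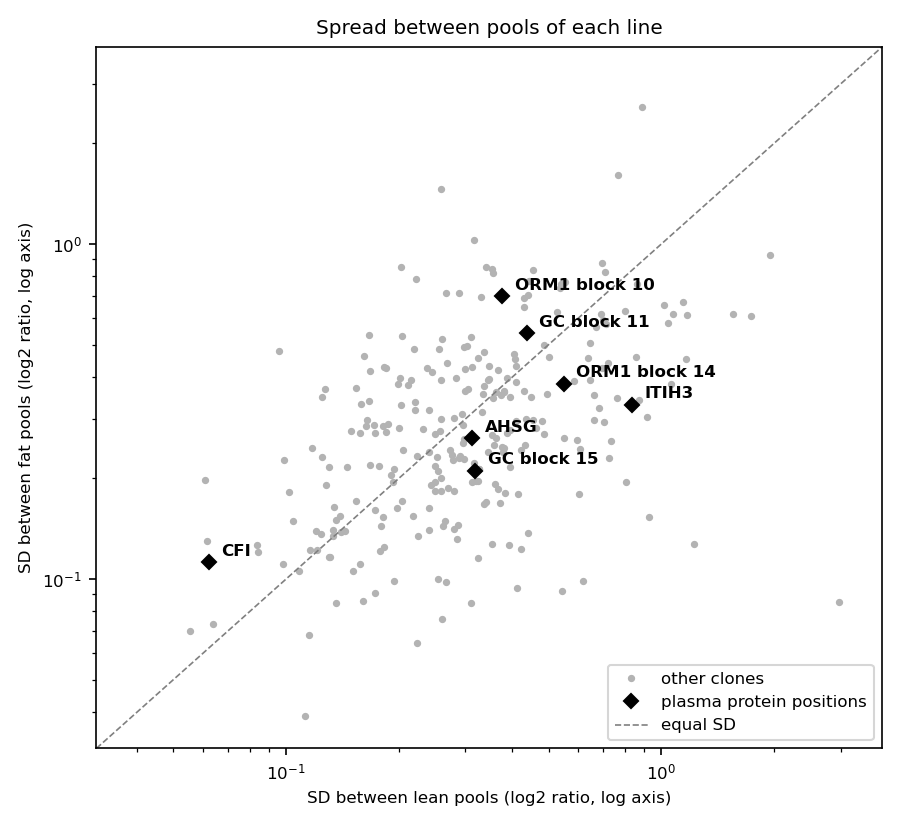
Standard deviation of the log2 ratio between fat pools (vertical axis, log scale) against that between lean pools (horizontal axis, log scale) for the 272 positions with at least 4 pools of each line. Diamonds mark the plasma protein positions, grey points the others, and the dashed line equal SD. ITIH3 lies at 0.33 in the fat line and 0.84 in the lean line, ORM1 in block 10 at 0.70 and 0.38, and CFI near the lower left at 0.11 and 0.06.

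Spread between pools was compared between the lines at every position with all 10 pools. Among the plasma protein positions measured in every pool, CFI had the smallest SD, 0.11 between fat pools and 0.06 between lean pools. ORM1 in block 10 had 0.70 and 0.38, the widest of these in the fat line. GC had 0.54 and 0.44 in block 11 and 0.21 and 0.32 in block 15, and ORM1 in block 14 had 0.38 and 0.55, the widest of these in the lean line. The median over all 232 positions was 0.25 between fat pools and 0.28 between lean pools. The number of positions at which the spread differed between the lines was 0 of 232, or 0%, in the exact permutation test after adjustment, with 4 at an unadjusted p under 0.05, or 1.72%. With 252 splits of 10 pools the exact permutation p cannot fall below 0.00794, so no single position could pass after adjustment. The count of 0 among these 232 positions therefore does not show equal spread. At the 5 plasma protein positions in that set the exact p lay between 0.310 (GC in block 15) and 0.905 (GC in block 11).

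Set against the whole array, the 7 positions did not stand out in the difference between lines. With limma 0 of 7 passed, as did 0 of all 297, or 0%. At an unadjusted p under 0.05 there were 0 of the 7 and 28 of the 297, or 9.43%. A limma fit on single arrays that allowed for a shared pool called 5 of the 297 and again 0 of the 7. The difference was above 0 at 3 positions (GC in block 11, CFI and ITIH3) and below 0 at 4 (AHSG, GC in block 15 and ORM1 at both), with a median of -0.03 against 0.03 over all 297. The median absolute difference was 0.26 at the 7 positions and 0.19 over all. Their median standard error was 0.28, against 0.20 over all.

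Other secreted liver proteins were compared in the same way. Of 58 such genes listed 6 were on the array with a name and 5 could be tested. Among the 5, 4 had a difference above 0 and 1 below. The test was passed by 0 of the 5 and by 0 of all 297 positions, or 0%, so this count does not set them apart. APOA1, a protein of high-density lipoprotein, differed by 0.43 (standard error 0.31) at its 1 tested position, and IGFBP2, which binds insulin-like growth factors, by 0.32 (standard error 0.34). LCAT, which esterifies plasma cholesterol, differed by 0.09 (standard error 0.12), APOB by 0.03 (standard error 0.13) and the hormone IGF1 by -0.81 (standard error 0.54). For these 5 the limma test gave an adjusted p between 0.656 and 0.946, and their median difference was 0.09 against 0.03 over all positions tested. Of 16 genes of the secretory pathway, SEC61A1, a subunit of the channel through which secreted proteins enter the endoplasmic reticulum, was the 1 tested and differed by -0.07 (standard error 0.24, limma adjusted p = 0.931). Of 15 regulators of the acute phase listed, such as STAT3 and CEBPB, 0 had a named clone.

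The clones whose pool values most resembled each position were found by Pearson correlation over the 10 pools, among up to 116 named clones of 78 other genes. FABP1, the liver fatty acid binding protein, appeared for 3 positions with 3 different clones, and with 5 tested positions it had more chances to do so than a gene with 1. Its clones were the nearest to GC in block 15 (r = 0.76) and to ORM1 in block 10 (r = 0.74), and among the 3 nearest to ORM1 in block 14 (r = 0.63). For ORM1 in block 14 the nearest was LOC423629 (r = 0.75), which was also among the 3 nearest to ORM1 in block 10 (r = 0.58). The cholesterol synthesis enzyme HMGCS1 was nearest to GC in block 11 (r = 0.70), and PCK2, a mitochondrial enzyme of gluconeogenesis, to CFI (r = 0.64). These clones shared arrays and reference, and were picked as the highest of many, so these values describe likeness and have no p. Between different plasma protein genes with values in every pool the correlations ran from -0.04 (GC in block 15 with CFI) to 0.50 (GC in block 11 with ORM1 in block 14).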

How the data were processed

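The authors deposited log2 ratios for single spots, from a Cy5 channel (pool) and a Cy3 channel (reference) per the labels. How the arrays were scanned, background-corrected, filtered and normalized was not given in the sources used here. That the logs are to base 2 was read from the values, which reach 14.01, beyond the 11.1 of a natural log ratio on a 16-bit scanner. Array medians lay between -0.06 and 0.07. All 5 symbols matched current RefSeq entries (GRCg7b, used for names only, so no coordinates are given).

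Values of the 3 spots of a position (3 rows apart) were averaged, then arrays of a pool. Missing values stayed missing. Fat minus lean was tested two-sided in R 4.3.3 with limma 3.58.1 (lmFit and eBayes) where each line had 3 or more pools, with Benjamini-Hochberg adjustment over all positions and calls at an adjusted p under 0.05. Pools of a line were compared by a moderated F test on arrays (limma squeezeVar, error shared by both lines), for positions with at least 2 arrays in each pool. Spread was compared by exact permutation of absolute deviations from the line median. Correlation p-values used 100000 permutations. Scripts were tested on simulated data. P-values between the lines, of spread and of correlations rest on the spread between pools of 4 chickens, array error included. Those of the F test set the pools against the error between arrays of a pool, with arrays as observations. Named were all positions of the 5 genes, tested members of the lists and the clones most like each position (up to 3). The genes, lists and tests were chosen with earlier results of these data known. The array number within a pool was tried as a block, and the closing section gives the other alternatives.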

Additional observations from a re-analysis of the deposited data

Results flagged for a closer look

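One value stood apart from the rest of its line. ORM1 in block 14 stood at 0.908 in lean pool 2, while the next lean pool, pool 3, was at -0.04. The gap took up 0.727 of the range of the 5 lean pools, above Dixon's critical value of 0.71. Of 14 groups of 4 or 5 pools examined 1 was singled out in this way, and chance alone singles out about 1 in 20. The 2 arrays of pool 2 with a value gave 1.17 and 0.65. At the other ORM1 position pool 2 was also the highest lean pool, at 0.56.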

How the results depend on the processing

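No alternative brought any of the 7 positions past the threshold between the lines, and AHSG, GC in block 11, CFI and ITIH3 kept their sign in every alternative run. Fits on single arrays called 5 positions, and 6 when the array number was added as a replicate block, against 0 with pools. In these 2 fits ORM1 in block 10 turned to 0.0227 and 0.0335, and it turned to 0.0202 with the median of the spots and 0.0858 after quantile normalization. AHSG was at -0.53 with the replicate block. With array 1 of each pool only, GC in block 15 turned to 0.0167 and ORM1 in block 14 to 0.383. With single pools or arrays left out ORM1 ran from -0.318 to 0.124 in block 10 and from -0.214 to 0.166 in block 14. No pairing by array number was seen: the median correlation of same-numbered arrays of different lines was -0.02, against -0.005 for other numbers. Of 28 arrays 4 correlated best with their own number. Since even arrays of the same pool had a median r of only 0.21, these correlations cannot decide whether array numbers paired the samples. Positions called among fat pools numbered 1 to 5 with single pools left out (1 without pool 6, 2 without pool 7, 3 without pool 10) and 0 with the line fitted alone, against 6. Among lean pools they numbered 2 (without pool 3) to 8, and 1 with the line fitted alone, against 9. The causes were not tested. AHSG and GC in block 11 had values in too few pools to be tested with array 1 only. AHSG and ITIH3 could not be tested with all 10 pools required, and no F test was run where a pool kept 1 array. The number of pools, the missing values and the array error limit the precision.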
